A study of Mus musculus with 10 samples.

Results

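The genes described here are 10 immediate-early genes outside the AP-1 group: Egr1, Egr2 and Egr3, Nr4a1, Nr4a2 and Nr4a3, Ier2, Ier3 and Ier5, and Btg2. They were chosen by gene symbol, and all 10 were present among the 30074 genes of the table. Ier5 and Btg2 lie on chromosome 1, Nr4a2 on 2, Nr4a3 on 4, Ier2 on 8, Egr2 on 10, Egr3 on 14, Nr4a1 on 15, Ier3 on 17 and Egr1 on 18. Expression was measured by RNA sequencing in hearts of wild-type C57BL/6 male mice, 8 to 12 weeks old and weighing about 25 g, all of which had been given lipopolysaccharide (LPS), a bacterial endotoxin, into the peritoneum. Artesunate, an antimalarial endoperoxide, was injected by the same route at 50 mg/kg 10 min ahead of LPS and a further time 4 h after it for 5 libraries (LPS+ART), and vehicle was given for the other 5 (LPS+Vehicle). Each library is called a heart below, although the labels do not say that each came from a different mouse. Heart function was assessed 24 h after LPS, and no separate time is given for the hearts taken for RNA. Hearts without LPS were not analysed here, so a level under LPS+Vehicle is not an unstimulated level.

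Immediate-early genes are transcribed within minutes of a stimulus, from transcription factors that are already present and need no new protein, and their mRNAs are usually short-lived. Growth factors, stretch, adrenergic signals, cytokines and the handling of tissue all induce them. EGR proteins are zinc finger transcription factors that bind GC-rich sites. NR4A proteins are orphan nuclear receptors whose activity follows their amount, because no classical ligand is needed. Ier2 and Ier5 encode related nuclear proteins, Ier3 encodes a small membrane-linked survival protein unrelated to them in sequence, and Btg2 encodes an antiproliferative protein that recruits the mRNA deadenylase complex.

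The sequence just upstream of these genes is shown first because such promoters are known to gather sites for serum response factor (SRF) and for CREB, the factor that answers cyclic AMP. RefSeq promoter windows of GRCm38.p6 were matched by symbol for 7 of the 10 genes. Egr1, Egr3 and Ier2 are named only. Each run below starts 250 bases before a transcription start and stops short of annotated exons. Capitals mark the CArG box bound by SRF, the CREB core TGACG on either strand, including within TGACGTCA, and the kB site bound by NF-kB.
Egr2, chr10:67537619-67537868, plus strand: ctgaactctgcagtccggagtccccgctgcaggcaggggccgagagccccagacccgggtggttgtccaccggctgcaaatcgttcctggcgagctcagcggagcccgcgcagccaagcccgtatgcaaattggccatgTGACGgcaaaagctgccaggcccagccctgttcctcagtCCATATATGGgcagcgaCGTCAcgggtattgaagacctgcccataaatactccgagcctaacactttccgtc
Nr4a1, chr15:101266596-101266845, plus strand: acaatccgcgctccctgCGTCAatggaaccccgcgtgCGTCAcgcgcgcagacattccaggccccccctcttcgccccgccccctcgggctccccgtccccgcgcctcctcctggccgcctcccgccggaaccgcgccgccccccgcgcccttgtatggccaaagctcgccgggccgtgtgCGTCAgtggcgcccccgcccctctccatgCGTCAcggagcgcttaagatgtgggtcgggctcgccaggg
Nr4a2, chr2:57124004-57124253, minus strand: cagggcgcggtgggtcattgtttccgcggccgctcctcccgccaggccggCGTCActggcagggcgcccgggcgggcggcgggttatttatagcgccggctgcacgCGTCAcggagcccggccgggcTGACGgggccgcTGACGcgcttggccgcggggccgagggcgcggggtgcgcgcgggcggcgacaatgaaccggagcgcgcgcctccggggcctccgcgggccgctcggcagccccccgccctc
Nr4a3, chr4:48045055-48045152, plus strand: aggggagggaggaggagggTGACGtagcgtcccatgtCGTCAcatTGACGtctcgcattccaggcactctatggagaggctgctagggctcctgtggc
Ier3, chr17:35821463-35821683, plus strand: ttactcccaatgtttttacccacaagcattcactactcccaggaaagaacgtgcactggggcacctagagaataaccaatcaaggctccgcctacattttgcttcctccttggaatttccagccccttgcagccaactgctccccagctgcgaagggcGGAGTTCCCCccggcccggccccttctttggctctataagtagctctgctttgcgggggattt
Btg2, chr1:134079156-134079405, minus strand: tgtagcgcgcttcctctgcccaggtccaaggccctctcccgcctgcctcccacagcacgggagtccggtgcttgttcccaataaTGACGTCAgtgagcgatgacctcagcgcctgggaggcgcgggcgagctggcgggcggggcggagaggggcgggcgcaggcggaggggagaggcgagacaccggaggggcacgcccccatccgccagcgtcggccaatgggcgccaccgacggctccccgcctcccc

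Egr2, which has 5 listed starts, carried a CArG box 72 to 63 bases before the start shown here, the third of them. A CArG box was found in 1.47% of the 32851 promoter windows of the same length. The 3 NR4A genes were alike in the CREB core: each held 4 matches to TGACG, a number reached by 0.137% of all windows, while at least 1 match was found in 17.8%. The number of 4 was chosen after these matches were seen. In the Nr4a3 window the last of its 4 matches lies in an annotated exon and is not printed. Btg2 held the full palindrome TGACGTCA, found in 1.55% of windows, whose 8 letters contain TGACG on both strands. Ier3 held a kB site 92 to 83 bases before its start, against 3.9% of windows. The GC-rich EGR-type site GCGNGGGCG was matched once each in Nr4a1, Nr4a2 and Btg2, against 4.7% of windows. The window of Ier5 matched none of these motifs except CCAAT, which occurs in 33.8% of windows. Neither AAAGGTCA, the element bound by NR4A monomers (1.34% of windows), nor TATAAA on the sense strand (7.59%) was found in these 7 genes. A match describes letters only, and binding was not measured.

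**Figure D1:**
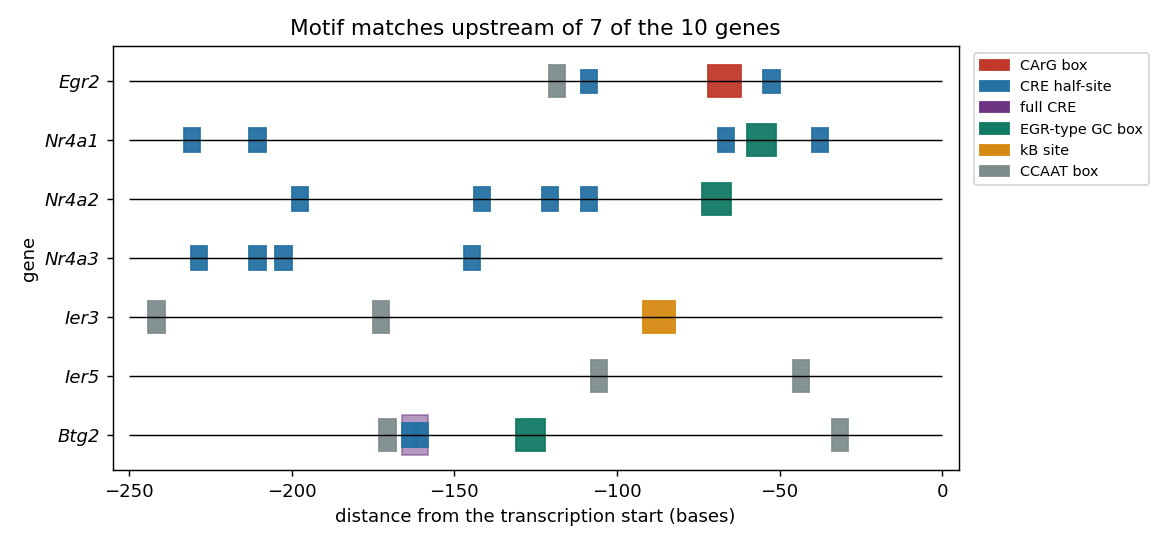
Motif matches in the 250 bases before the transcription start of 7 genes, by distance from the start in bases; for Egr2 the third of 5 listed starts is drawn. Blue boxes are the CREB core TGACG on either strand, the pale purple box is TGACGTCA, and the 3 NR4A genes each show 4 blue boxes.

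Short-lived mRNAs often carry AU-rich elements built on ATTTA in the 3' untranslated region. In the GENCODE M21 models, Ier3 had 5 copies in 613 bases, a density of 8.16 per kb that exceeded that of 98.6% of 10760 genes tested. Nr4a1 had 3 copies in 543 bases, or 5.52 per kb, above 95.1% of genes. The median over those genes was 1.33 per kb, and 8 of the 10 members lay above it. Ier2 had none and Ier5 had 0.933 per kb. The nonamer TTATTTATT was found in 0 members and in 7.37% of the genes. For 3 members with copies close together, Nr4a1, Ier3 and Btg2, a window of 30 bases holding 2 copies is shown, with ATTTA in capitals.
Nr4a1, bases 449 to 478 of the 3' untranslated region: gATTTAtatttgtgtattttcctggATTTA
Ier3, bases 166 to 195: ctccgtgtctaattaatATTTAtgtATTTA
Btg2, bases 1322 to 1351: aaATTTAtttgtagatgtgtgcaatATTTA

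The EGR, IER and Btg2 genes are compact, and the NR4A genes are not. Ier2 and Ier5 are single-exon genes, Ier3 and Btg2 have 2 exons, and the EGR, IER and Btg2 genes span at most 6714 bases, a span not exceeded by 15.8% of 11336 protein-coding genes tested, whose median span was 23779 bases. The NR4A genes have 8 exons and span 17174 to 41295 bases. None of the 10 overlaps another annotated gene on either strand, and Ier3 alone has a neighbour within 1 kb, Flot1.

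Values are FPKM, fragments scaled to exon length and library size, as deposited. They were whole multiples of 1 read, which gave back totals of 30684056 to 36679402 reads per LPS+ART library and 29980900 to 54222272 per LPS+Vehicle library. In a gene of 1 kb, 3 reads are worth 0.0553 to 0.1 FPKM depending on the library, a floor for counting error alone. Changes were tested with limma on log2(FPKM + 1) in the 13314 genes whose mean reached 0.5 FPKM, and a gene is called at a Benjamini-Hochberg adjusted p under 0.05. Log2 fold changes are LPS+ART over LPS+Vehicle on that scale, which understates low genes, and folds in words are ratios of mean FPKM. The median over all genes was -0.27 as deposited and 0.02 after median-ratio scaling, so a change is best read against that shift. Read numbers were compared between libraries by chi-square after division by 2, since mates seem counted apart. Elsewhere, also in limma-voom, they were not halved. The halved numbers of LPS+Vehicle replicates 2 and 5 were close to each other, at 1.76 per degree of freedom. The 19 other pairs within a group gave 13.88 to 48.68. Whether LPS+Vehicle replicates 2 and 5 share an animal is not stated, and if they do, LPS+Vehicle has 4 animals and its SDs at n = 5 are too small. LPS+ART replicates 3 and 4 gave 18.01 with each other and 35.13 to 48.68 with the 3 remaining LPS+ART hearts. Genes of the mitochondrial genome took 24.68 to 30.23% of recovered reads in LPS+ART against 20.99 to 23.7% in LPS+Vehicle, without overlap, and the part of this in the results was not tested. In whole hearts, fewer cells of a type and less RNA per cell cannot be told apart.

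Of the 10 genes, 9 passed the filter on low values and all 9 were called higher in LPS+ART, while 0 were called lower by limma, 0 at an unadjusted p under 0.05 and 0 by limma-voom on recovered reads. Over all genes tested, 11.8% were called higher and 52.9% lower. The median log2 fold change of the 9 was 1.17. The filter used the mean of all 10 libraries, and 2 of the 9 passed it only through their LPS+ART values. Egr2 averaged 1.35 FPKM in LPS+ART and 0.343 in LPS+Vehicle, and Egr3 1.29 and 0.363. In the fit without a filter both were called higher too (limma adjusted p = 0.00511 and 5.3e-04). Nr4a2 stayed under the filter and is described below with its reads. In 8 of the 9 the 5 LPS+ART values lay wholly above the 5 LPS+Vehicle values, which held for 7.54% of all genes tested, while the reverse held for 42.5% of genes and 0 of the 9. Egr2 was the exception. After median-ratio scaling 9 of 9 were again called higher, against 30.1% of all genes, and with the trend by expression level removed by cyclic loess 9 of 9, against 29%. By order of the log2 fold changes, Btg2 ranked 15th, Nr4a1 56th, Ier3 61st and Egr1 63rd among the 13314 genes, and Nr4a3, the lowest of the 9, ranked 648th.

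**Figure D2:**
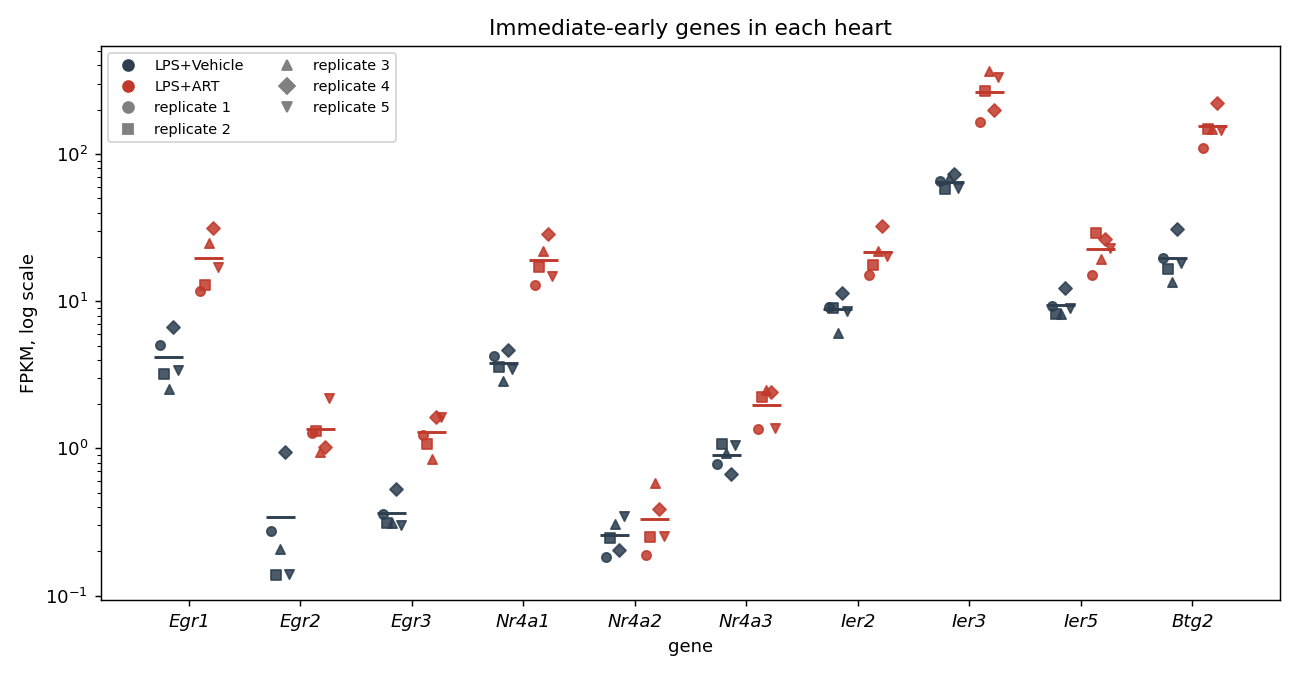
FPKM of each gene in each heart on a log axis, with LPS+Vehicle in dark blue to the left and LPS+ART in red to the right of each gene; marker shapes are replicates and bars are group means. The groups are apart in 8 genes, touch in Egr2 through LPS+Vehicle replicate 4 at 0.952 FPKM, and overlap in Nr4a2.

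Egr1, the most studied factor of the family and an inducer of growth factor and coagulation genes, was at 11.7, 12.9, 24.8, 31.6 and 17 FPKM in LPS+ART replicates 1 to 5 and at 5.01, 3.22, 2.52, 6.71 and 3.4 FPKM in LPS+Vehicle replicates 1 to 5. Every LPS+ART heart was above every LPS+Vehicle heart, and the lowest of the former was 1.75 times the highest of the latter. The means were 19.6 ± 8.42 and 4.17 ± 1.69 FPKM (SD, n = 5 each), a 4.7-fold difference (log2 fold change 1.96, SE 0.28, limma adjusted p = 1.0e-04). LPS+ART replicates 3 and 4 were the highest, and without them the ratio was 3.33 and the gene stayed called.

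Egr2, known for its part in myelination and in lymphocyte tolerance, was far less abundant. It was at 1.27, 1.32, 0.94, 1.03 and 2.2 FPKM in LPS+ART replicates 1 to 5 and at 0.277, 0.138, 0.206, 0.952 and 0.141 FPKM in LPS+Vehicle replicates 1 to 5, on 98 to 274 reads after artesunate and 16 to 97 after vehicle. LPS+Vehicle replicate 4 lay among the LPS+ART hearts, just above LPS+ART replicate 3. The 4 other vehicle hearts did not exceed 0.277 FPKM. Egr2 rose 3.93-fold (log2 fold change 0.82, SE 0.17, limma adjusted p = 0.00136), and 7.08-fold without LPS+Vehicle replicate 4.

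Egr3, an EGR factor of muscle spindles and of activated lymphocytes, was at 1.24, 1.07, 0.851, 1.64 and 1.63 FPKM in LPS+ART replicates 1 to 5 and at 0.361, 0.313, 0.31, 0.53 and 0.3 FPKM in LPS+Vehicle replicates 1 to 5. The groups did not overlap, and the rise was 3.55-fold (log2 fold change 0.74, SE 0.11, limma adjusted p = 1.1e-04). Adding 1 to each value compresses both low EGR genes: on recovered reads limma-voom gave log2 fold changes of 2.38 for Egr2 and 1.84 for Egr3, beside 2.26 for Egr1.

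Nr4a1 (Nur77), a nuclear receptor induced by adrenergic and inflammatory signals, was at 12.9, 17.1, 22, 28.8 and 14.9 FPKM in LPS+ART replicates 1 to 5 and at 4.27, 3.6, 2.86, 4.69 and 3.48 FPKM in LPS+Vehicle replicates 1 to 5. The gap between the groups was wide, the lowest LPS+ART heart standing 2.75 times above the highest vehicle heart. Nr4a1 rose 5.06-fold (log2 fold change 2.03, SE 0.19, limma adjusted p = 9.2e-06).

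Nr4a3 (NOR1) was at 1.36, 2.24, 2.51, 2.4 and 1.38 FPKM in LPS+ART replicates 1 to 5 and at 0.781, 1.07, 0.93, 0.669 and 1.05 FPKM in LPS+Vehicle replicates 1 to 5. LPS+ART replicates 1 and 5 lay close to the vehicle range without entering it. Its rise was 2.2-fold (log2 fold change 0.63, SE 0.13, limma adjusted p = 0.0012).

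Nr4a2 (Nurr1), best known from dopaminergic neurons, had the lowest level of the 10 genes. It was at 0.189, 0.252, 0.586, 0.385 and 0.255 FPKM in LPS+ART replicates 1 to 5, from 28 to 73 reads, and at 0.184, 0.246, 0.309, 0.205 and 0.348 FPKM in LPS+Vehicle replicates 1 to 5, from 23 to 68 reads. The groups overlapped, although 2 LPS+ART hearts, replicates 3 and 4, exceeded the highest vehicle heart. In the fit without a filter its log2 fold change was 0.08 (SE 0.08, limma adjusted p = 0.494), in which 6.47% of the 30074 genes were called higher and 27% lower. The ratio of means was 1.29, and 0.899 without LPS+ART replicates 3 and 4. A p above the threshold does not show that Nr4a2 was equal in the groups.

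Ier3 (IEX-1), a gene known as a target of NF-kB, was the most abundant of the 10. It was at 164, 268, 366, 199.6 and 333 FPKM in LPS+ART replicates 1 to 5 and at 65.5, 57.7, 68.5, 73.2 and 59.2 FPKM in LPS+Vehicle replicates 1 to 5. The vehicle hearts were tightly grouped, with a coefficient of variation of 9.94%, against 32.2% in LPS+ART. Ier3 rose 4.11-fold (log2 fold change 1.96, SE 0.2, limma adjusted p = 1.2e-05).

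Ier2 and Ier5 stood at similar levels and moved by similar amounts. Ier2 was at 15.1, 17.7, 21.8, 32.6 and 20.4 FPKM in LPS+ART replicates 1 to 5 and at 9.21, 8.99, 6.05, 11.3 and 8.6 FPKM in LPS+Vehicle replicates 1 to 5 (log2 fold change 1.17, SE 0.19, limma adjusted p = 2.5e-04). Ier5, which is known to bind heat shock factor 1 (Hsf1), was at 15.1, 29.3, 19.5, 26.3 and 22.9 FPKM in LPS+ART replicates 1 to 5 and at 9.24, 8.16, 8.24, 12.4 and 8.94 FPKM in LPS+Vehicle replicates 1 to 5 (log2 fold change 1.16, SE 0.17, limma adjusted p = 1.0e-04). Neither gene overlapped between groups, and LPS+Vehicle replicate 4 was the highest vehicle heart for both. The ratios of means were 2.44 for Ier2 and 2.41 for Ier5.

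Btg2, also a target of p53, showed the largest change of the 10. It was at 109.7, 147, 149, 223 and 146 FPKM in LPS+ART replicates 1 to 5 and at 19.6, 16.6, 13.5, 31 and 18.2 FPKM in LPS+Vehicle replicates 1 to 5. The lowest LPS+ART heart was 3.54 times the highest vehicle heart. The rise was 7.83-fold (log2 fold change 2.92, SE 0.21, limma adjusted p = 4.1e-06), and it rested on 10977 to 20358 reads after artesunate and 1556 to 2546 after vehicle. With LPS+Vehicle replicates 2 and 5 averaged as 1, each of the 9 tested genes stayed called, Btg2 at a log2 fold change of 2.89 (limma adjusted p = 2.8e-05) and Egr2, the least certain, at 0.76 (limma adjusted p = 0.00439).

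**Figure D3:**
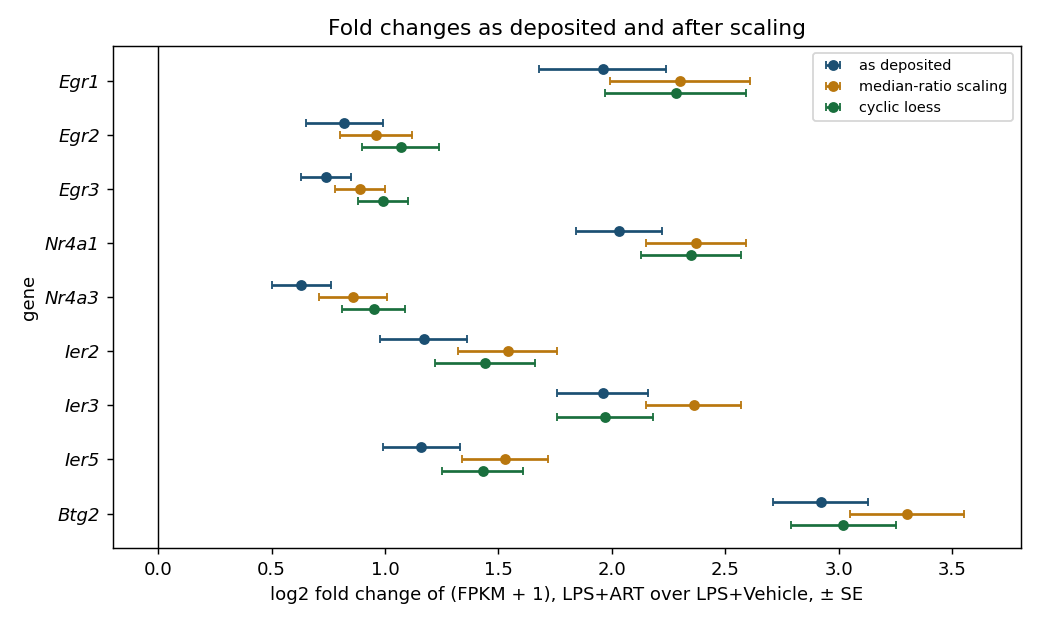
Log2 fold changes of FPKM + 1, LPS+ART over LPS+Vehicle, of the 9 tested genes with standard errors, as deposited (blue), after median-ratio scaling (orange) and after cyclic loess (green). All 27 points lie above 0, from 0.63 for Nr4a3 to 3.3 for Btg2.

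FPKM is per length, so levels of different genes can be set side by side. In LPS+Vehicle the order of mean FPKM was Ier3, Btg2, Ier5, Ier2, Egr1, Nr4a1, Nr4a3, Egr3, Egr2 and Nr4a2, and in LPS+ART Egr2 and Egr3 exchanged places. Neighbours in these orders often could not be separated. Ier5 and Ier2 overlapped in range in both groups, as did Egr1 and Nr4a1, and Egr2 and Egr3. Ier3 lay above Btg2 without overlap in LPS+Vehicle, at 64.8 ± 6.45 against 19.8 ± 6.65 FPKM, whereas in LPS+ART the values were 266 ± 85.7 and 155 ± 41.4 FPKM (SD, n = 5 each), the ranges overlapped and Ier3 was the higher in 4 of 5 hearts.

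The share of each gene in the summed FPKM of the 3 genes of its name does not change when a library is scaled by a common factor. Cyclic loess adjusts by expression level, and the shares were not computed after it. In the values as deposited, the shares show that the NR4A genes did not rise in proportion. Nr4a1 made up 89.1 ± 1.64% of NR4A FPKM after artesunate against 76.1 ± 6.45% after vehicle (SD, n = 5 each), Nr4a3 9.36 ± 1.49% against 18.6 ± 4.78%, and Nr4a2 1.54 ± 0.462% against 5.37 ± 1.88%. For each of the 3 the groups did not overlap (exact permutation test, two-sided p = 0.00794, the smallest that 5 against 5 can give, and 0.0238 with Benjamini-Hochberg adjustment over 9 shares). The Nr4a1 share was higher in 5 of 5 LPS+ART hearts than in any vehicle heart. Without LPS+ART replicates 3 and 4 the differences were about as large, 12.84, -8.85 and -3.99 percentage points for Nr4a1, Nr4a3 and Nr4a2, but the exact permutation adjusted p was 0.0643 with 3 hearts against 5. Shares within a family sum to a fixed total and are not independent of each other.

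Egr1 held 86.8 ± 5.55% of EGR FPKM after artesunate against 86 ± 3.24% after vehicle (SD, n = 5 each; exact permutation adjusted p = 0.81). The difference of 0.81 percentage points turned to -3.17 without LPS+ART replicates 3 and 4, in which Egr1 made up 93.3 and 92.2%, against 81.6 to 84.4% in the 3 other LPS+ART hearts. Ier3 held 85 ± 4.91% of the IER sum against 78.1 ± 2.73% (exact permutation adjusted p = 0.0429) and Ier5 7.62 ± 2.22% against 11.3 ± 1.04% (exact permutation adjusted p = 0.0357). Both IER calls were lost with LPS+Vehicle replicates 2 and 5 averaged, at exact permutation adjusted p = 0.0857 for Ier3 and 0.0714 for Ier5, with differences of 6.66 and -3.63 percentage points. The test then has 4 vehicle values. Leaving out any single library also ended the Ier3 call (largest exact permutation adjusted p = 0.0857) except LPS+ART replicate 4, and the Ier5 call (largest 0.0714) except LPS+ART replicate 4 or LPS+Vehicle replicate 3. Ier2 held 7.35 ± 3.1% against 10.6 ± 1.9% and did not pass the threshold (exact permutation adjusted p = 0.131; 0.0476 without LPS+ART replicate 4).

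**Figure D4:**
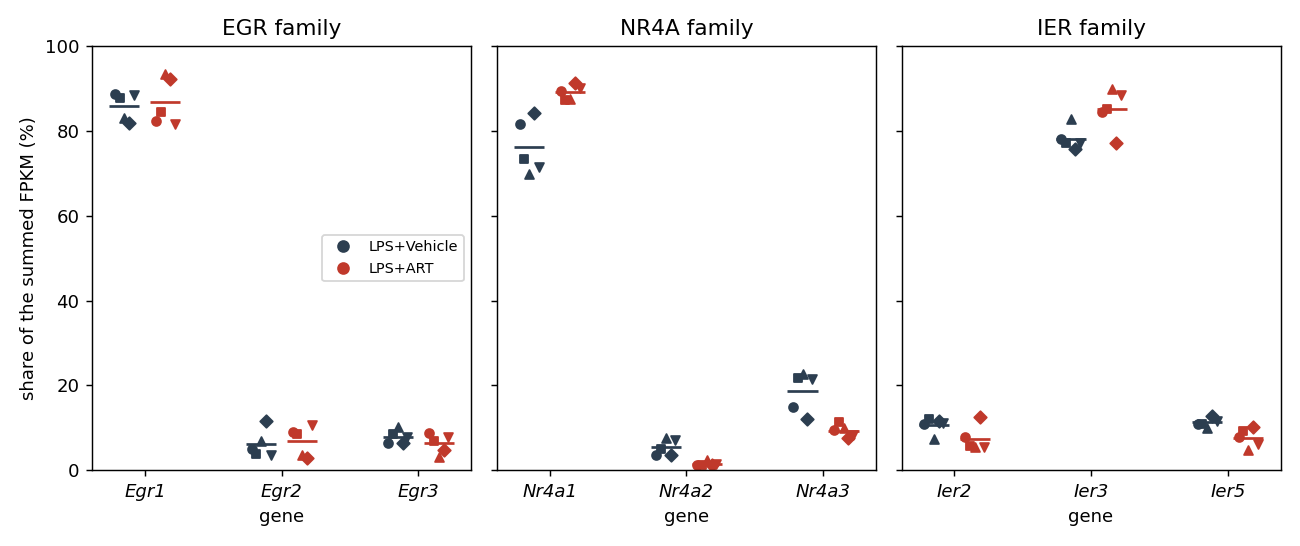
Share in percent of each gene in the summed FPKM of Egr1 to Egr3, of Nr4a1 to Nr4a3 and of Ier2, Ier3 and Ier5, one point per heart, LPS+Vehicle in dark blue and LPS+ART in red, bars at group means. The NR4A groups are apart for all 3 genes, with Nr4a1 at 87.3 to 91.2% after artesunate and at 69.8 to 84.3% after vehicle.

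Within each group single hearts stood high or low for many of the genes. LPS+Vehicle replicate 4 was the highest vehicle heart for 8 of the 10 genes, the exceptions being Nr4a2 and Nr4a3, and for Nr4a3 it was the lowest. LPS+ART replicate 1 was the lowest of its group for 8 of the 10, all but Egr2 and Egr3. LPS+ART replicate 4 was the highest for 5, namely Egr1, Egr3, Nr4a1, Ier2 and Btg2. Ier3 took another order, with LPS+ART replicates 3 and 5 highest. LPS+Vehicle replicate 3 was the lowest vehicle heart for 4 genes and replicate 2 for 3.

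**Figure D5:**
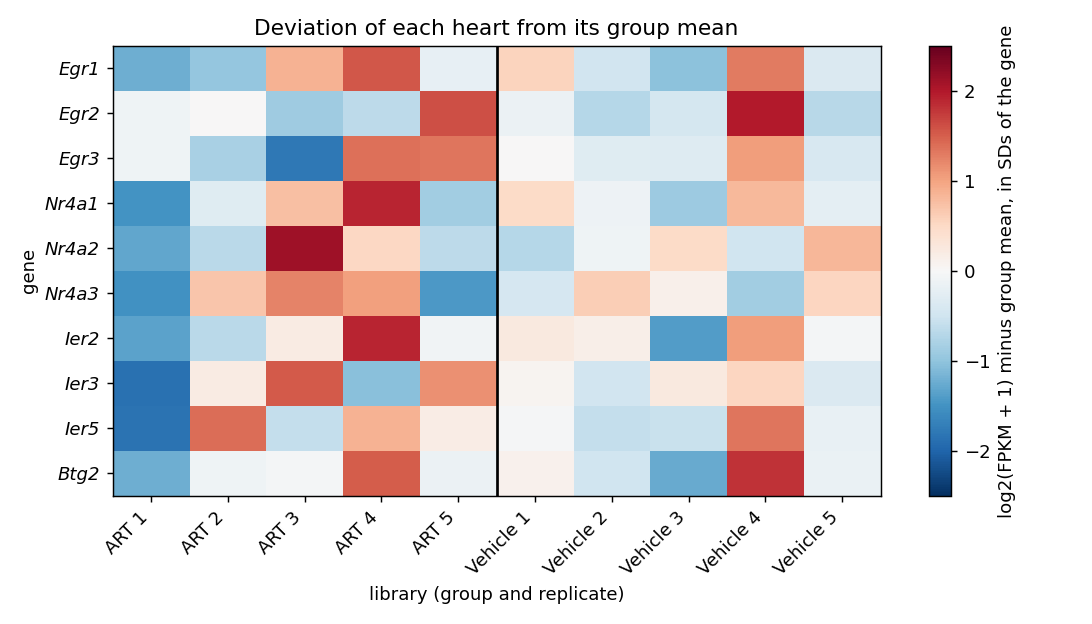
Deviation of each heart from its group mean, log2(FPKM + 1) divided by the standard deviation of the gene's 10 deviations, for the 10 genes (rows) and 10 libraries (columns; LPS+ART left, LPS+Vehicle right of the line). LPS+Vehicle replicate 4 is red for 8 genes and LPS+ART replicate 1 is blue for all 10, most faintly for Egr2 and Egr3.

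With group means removed, the genes outside the list that most resembled the mean profile of the 10 were sought among 11291 genes with a symbol and a mean from 1 FPKM upwards, as a description over 10 libraries. They were Gm45053, an unclassified transcript, Thbs1, which encodes the matricellular protein thrombospondin 1, Ahctf1, which encodes a nuclear pore protein, Mdn1, which encodes a ribosome assembly ATPase, and Dhx15, which encodes a splicing helicase. Their likeness, Pearson's coefficient over the 10 libraries, was 0.98, 0.97, 0.95, 0.95 and 0.94. Picking the highest of 11291 coefficients over so few libraries yields high values by itself. Thbs1 stood at 9.01 ± 3.07 against 2.2 ± 1.09 FPKM (SD, n = 5 each) and was called higher (log2 fold change 1.63, limma adjusted p = 3.0e-04).

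The other early response genes were mostly higher too, where 11.8% of all genes were called higher and 52.9% lower. Of 8 AP-1 genes 7 were called higher and 0 lower by limma, 0 at an unadjusted p under 0.05 and 0 by limma-voom, with a median log2 fold change of 1.38. Atf3 and Fosl2 rose by 2.8 and 1.8 on that scale, and Jund was not called as deposited (log2 fold change 0.09, limma adjusted p = 0.306). After median-ratio scaling Jund was called as well (0.45, limma adjusted p = 1.7e-04), making 8 of 8. Of 36 further immediate-early and early response genes 28 were higher and 2 lower, with a median of 1.11. Ccn1, a matricellular protein gene, and Gadd45g, a growth arrest gene, had the largest rises, of 3.71 and 2.92. Klf10 and Klf4, Kruppel-like factor genes, fell by 0.77 and 0.61, and after median-ratio scaling neither was called, at limma adjusted p = 0.0936 and 0.0938.

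Among relatives of the members, 3 of 5 tested genes were higher, where 11.8% of all genes were. Of these 5, 0 were lower by limma, 0 at an unadjusted p under 0.05 and 0 by limma-voom. Btg3, Btg1 and Tob1, antiproliferative genes related to Btg2, rose by 0.6, 0.53 and 0.35. Ier5l, a relative of Ier5, stood at 2.66 ± 0.544 against 2.68 ± 0.597 FPKM (SD, n = 5 each). Of 8 tested partners of the member proteins, 4 were lower, a share close to the 52.9% of all genes called lower, and 0 were higher by limma, 0 at an unadjusted p under 0.05 and 0 by limma-voom. Rxrg, Rxrb and Rxra, the retinoid X receptors that pair with NR4A1 and NR4A2, fell by 1.21, 0.7 and 0.53, and Cnot8, a deadenylase partner of BTG proteins, fell by 0.55. Relative to all genes, after median-ratio scaling, Rxrg, Rxrb and Cnot8 stayed lower and Rxra was not called (limma adjusted p = 0.0903). With that scaling 3 others, Nab1, Cnot7 and Hsf1, were called higher. These 3 of 8 in each direction were not far from the 30.1% of all genes called each way. Nab2, a corepressor that EGR factors induce and that restrains them, stood at 1.79 ± 0.739 against 1.69 ± 0.12 FPKM (limma adjusted p = 0.959).

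Transcripts of upstream activators are to be read against the 11.8% of all genes called higher and 52.9% called lower as deposited. After median-ratio scaling these shares were 30.1% each. Of 15 SRF, TCF, CREB and MEF2 activator genes 2 were higher and 10 lower; median-ratio scaling made this 3 higher and 4 lower. Elk3, an ETS factor that pairs with SRF, and Mrtfb, an actin-regulated SRF coactivator, fell by 1.32 and 1.05. Elk4 and Crtc2, a CREB coactivator gene, rose by 0.53 and 0.27. Creb1 itself was at 0.919 ± 0.0619 against 2.57 ± 0.312 FPKM (SD, n = 5 each; log2 fold change -0.89, limma adjusted p = 6.2e-06), and Srf fell by 0.47 as deposited and was not called after scaling (limma adjusted p = 0.367). Of 21 MAP kinase cascade genes 0 were higher by limma, 0 at an unadjusted p under 0.05 and 0 by limma-voom, and 13 were lower, but 8 were higher and 7 lower after scaling. As shares, those scaled counts were not far from the 30.1% of all genes in each direction. Mapk3 (ERK1) and Mapk14 (p38 alpha) fell by 1.71 and 0.74 and stayed lower after scaling. These are transcript levels, and the activity of the kinases was not measured.

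Genes described elsewhere as targets of the members moved in both directions. Of 13 described EGR1 targets 2 were higher and 4 lower (5 higher and 3 lower once scaled), with a median log2 fold change of -0.23 beside -0.27 for all genes. Over all genes 11.8% were called higher and 52.9% lower, and 30.1% each once scaled. The share of rises among EGR1 targets was thus not far from that of all genes, and the share of falls was smaller. Pdgfa, a growth factor gene, rose by 0.7. Pdgfb, Flt1 and Tgfb1 fell by 1.07, 0.62 and 0.5, and Tgfb1 was not called after scaling (limma adjusted p = 0.223). Of 7 glucose-use genes described as NR4A1 targets in skeletal muscle 2 were higher, Eno3 and Pfkm (log2 fold changes 0.45 and 0.35), and 1 was lower, Phka1, by 0.76. After scaling 5 were higher and 1 lower, and with the level trend removed 2 and 1.

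Heat shock genes, which tissue handling can also induce, were mixed. Of 9 tested, 4 rose and 2 fell, and scaling made this 5 and 1. Among all genes 11.8% were called higher and 52.9% lower as deposited, and 30.1% each after scaling. Rises were therefore more frequent, and falls less frequent, in these 9 than in all genes. The part of tissue handling was not tested. Hspa8 and Hspb1 each rose by 0.9, Hsp90aa1 by 0.4 and Dnajb1 by 0.39. Hspd1, a mitochondrial chaperonin gene, fell by 0.33 and was not called after scaling (limma adjusted p = 0.606). Hspa1b, an inducible HSP70 gene, fell by 0.58, and Hspa1a stood at 0.533 ± 0.141 against 0.74 ± 0.199 FPKM (SD, n = 5 each; limma adjusted p = 0.116).

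Cell type markers were read beside these changes. Of all genes tested, 11.8% were called higher and 52.9% lower as deposited, and 30.1% each after median-ratio scaling. Cyclic loess gave 29% and 28.7%. The cardiomyocyte markers, 8 genes, had 4 called higher and 1 lower (6 and 0 after median-ratio scaling, 4 and 2 after cyclic loess). The 2 lower after cyclic loess were Tnnt2 and Myh6 (log2 fold changes -0.41 and -0.33, limma adjusted p = 0.00179 and 0.00631). The 8 markers summed to 8359 to 10351 FPKM in LPS+ART hearts against 7128 to 7789 in vehicle hearts, and none was at 0. They did not move alike. Actc1 averaged 1996 FPKM after artesunate and 898 after vehicle, whereas Myh6 averaged 2302 and 2374. Macrophage markers were called lower in 8 of 8, also after scaling, with sums of 43.8 to 81.8 against 129 to 214 FPKM. Fibroblast markers were lower in 4 of 8 (3 after scaling), at 274 to 417 against 350.1 to 536 FPKM, and pericyte and smooth muscle markers in 5 of 6 (2 after scaling), at 133 to 187 against 206 to 277. Endothelial markers had 1 higher and 5 lower of 8 (3 and 3 after scaling), at 160.1 to 233 against 174 to 225 FPKM. The shares of fibroblast and endothelial markers called lower were not far from those of all genes. For pericyte and smooth muscle markers this held after scaling. Neutrophil markers had 1 higher and 1 lower of 7 before and after scaling, at 33.6 to 286 against 26.9 to 64.6, and erythroid markers 4 higher of 5 (5 after scaling), at 56.6 to 129 against 19.9 to 66.5. Ly6g and Camp, neutrophil genes, were at 0 in at least 1 vehicle heart. T cell and B cell markers summed to 0.222 to 0.822 FPKM, and Cd3d, Cd3g and Ms4a1 were at 0 in at least 1 heart of each group. The part of these markers in the rise of the immediate-early genes was not tested.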

How the data were processed

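Per the labels' protocols, mRNA of 10 hearts was selected with oligo-dT beads and read from both ends, on 2 instruments not assigned to samples. Treatment labels gave the groups and titles the replicate numbers. The submitters' processing notes name mm9. The sources used here do not give the aligner, counter, annotation or strand setting. The table deposited by the authors has no unit in its header, and its values were judged to be FPKM. Symbols came from GENCODE M21, a GRCm38 annotation, for 29538 genes. Read numbers were recovered from FPKM, exon length and the step worth 1 read, whole within 0.01 read in 98.2% of matched genes; Ier2 needed a length search. Mates seem counted apart, since 60.8 to 69.6% of read numbers of 1 to 4 were even.

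The test was limma-trend (limma 3.58.1, R 4.3.3) on log2(FPKM + 1), with a mean minimum of 0.5 FPKM, no covariate besides group, 10 libraries and no scaling, adjusted over 13314 genes. Shares were compared by exact permutation over 252 splits (scipy 1.17.1). The fit was also run on simulated counts in which every gene had the same dispersion and few genes changed. Far more genes were called in these data, so that run does not show how well the fit performs on them. The labels do not tie each replicate to an animal, so p-values reflect only how these libraries spread, which may be technical. The named genes are all 10 members, up to 2 called rises and 2 called falls of each list by size, genes behind the lists' counts of 5 or fewer as deposited, and the 5 genes closest in profile; some genes that the rule selects are not reported here. Nab2, Creb1, Srf, Jund, Ier5l and Hspa1a were named after their values were seen. The members and lists were chosen with earlier results of these data known. Alternatives were median-ratio scaling, cyclic loess, pseudocounts of 0.1 and 0.5, no filter, a filter at 1 FPKM, limma-voom on recovered reads, the replicate number as a block, averaging LPS+Vehicle replicates 2 and 5, omitting LPS+ART replicates 3 and 4, and omitting each library in turn. Figures used matplotlib 3.10.9.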

Additional observations from a re-analysis of the deposited data

Results flagged for a closer look

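LPS+Vehicle replicate 4 stood far above the other vehicle hearts for 3 of the 10 genes, judged by the gap to the nearest heart as a share of the group's range. Egr2 was at 0.952 FPKM there against 0.138 to 0.277 in the others, a gap of 0.829 of the range. Egr3 was at 0.53 FPKM against 0.3 to 0.361, and Ier5 at 12.4 against 8.16 to 9.24. The limit for 5 values is 0.71, and 20 groups of 5 were examined, of which chance alone marks about 1 in 20. Without this heart the log2 fold changes were 0.96, 0.78 and 1.26 for Egr2, Egr3 and Ier5. What sets this heart apart was not tested.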

How the results depend on the processing

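The 9 tested genes were called higher under every alternative in which they were tested (178 of 178 values); with a minimum of 1 FPKM, Egr2 and Egr3 fell under it and 7 remained tested. Over all genes, scaling gave 4004 higher and 4014 lower and cyclic loess 3856 and 3827, against 1565 and 7037 as deposited, and no filter gave 1946 and 8132. Lists followed that shift. Under median-ratio scaling 3 binding partners, 8 MAP kinase genes, 5 EGR1 targets and 5 NR4A1 targets were higher, and 4 activators, 7 MAP kinase genes, 0 other immediate-early genes and 1 heat shock gene were lower. Under cyclic loess 5 family relatives, 3 binding partners, 4 activators, 7 MAP kinase genes and 4 EGR1 targets were higher, and 6 activators, 7 MAP kinase genes and 1 other immediate-early gene were lower. With LPS+ART replicates 3 and 4 left out, 1 binding partner and 2 MAP kinase genes were higher. With LPS+Vehicle replicates 2 and 5 averaged, 1 NR4A1 target was higher. With 1 library left out, the range was 0 to 1 MAP kinase genes and 1 to 2 NR4A1 targets higher and 2 to 4 heat shock genes lower, and over all genes 1396 to 1562 higher and 6580 to 7062 lower.

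Shares, in percentage points, were less stable. With 1 library left out, Egr1 ran from -0.82 to 2.1 (-0.82, -0.55 and -0.21 without LPS+ART replicate 3, LPS+ART replicate 4 and LPS+Vehicle replicate 4), Egr2 from -0.14 (without LPS+ART replicate 5) to 2.14, Ier2 from -4.59 to -2.78, Ier3 from 5.7 to 8.86 and Ier5 from -4.27 to -2.93. The exact permutation adjusted p reached 0.0857 for Ier3 and 0.0714 for Ier5, and stayed at or below 0.0476 for the NR4A shares. Without LPS+ART replicates 3 and 4, Egr1 was -3.17, Nr4a1 12.84, Nr4a2 -3.99, Nr4a3 -8.85, Ier3 7.9 and Ier5 -3.54, the last 5 at an exact permutation adjusted p of 0.0643. With LPS+Vehicle replicates 2 and 5 averaged, Ier3 was 6.66 and Ier5 -3.63. Fewer samples raise the smallest p these tests can give.

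Whether replicate numbers pair the hearts is not stated, and the correlations below cannot settle it. Same-numbered deviations correlated at -0.08 to 0.18, above 0.1 in 3 of 5, and differently numbered ones at -0.189 to 0.224. A replicate block moved the SE of Btg2 from 0.21 to 0.13 and that of Egr1 from 0.28 to 0.22. For Egr2 it went from 0.17 to 0.18, and for Nr4a3 it stayed at 0.13. With a replicate block 1533 genes were higher and 6945 lower, and the shares of Nr4a1 (13.04), Nr4a2 (-3.83), Nr4a3 (-9.21), Ier3 (6.91) and Ier5 (-3.63) could not pass, since 5 pairs give no exact p under 0.0625.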
